A study of Mus musculus with 8 samples.

Results

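Glycosyltransferases and the enzymes that trim and sulfate glycans were described in macrophages sorted from mouse colon by whether they carried GPR35, a G protein-coupled receptor. The genes were chosen by symbol alone, as every listed gene of the Mgat, Fut, Pofut, St3gal, St6gal, St8sia, B3gnt, B3galt, B4galt, B4galnt, Galnt, Gcnt, Chst, Alg, Man1a, Man1c, Man2a, Pomt, Pomgnt, Ext, Ndst and Hs2st, Hs3st and Hs6st families. This gave 116 members among 14980 genes, of which 110 passed the filter on low counts and were tested. The GPR35-positive libraries numbered 4 and the GPR35-negative libraries 4. Both populations were sorted by FACS as MHCII+CD64+ cells from the lamina propria of the same 4 male mice, after the epithelium had been stripped, and RNA was amplified before sequencing. The labels name no treatment, strain or age. Replicate numbers stand for animals, and in bulk libraries such as these fewer cells of a type and less RNA per cell cannot be told apart.

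Glycans are built in order along the secretory pathway. In the endoplasmic reticulum the Alg enzymes assemble a dolichol-linked sugar tree that is moved as a whole onto proteins. Golgi mannosidases then trim it, the Mgat enzymes start its branches and set how many there are, and galactose, fucose and sialic acid are added at the ends. Mucin-type O-glycans start from the Galnt enzymes, heparan sulfate chains from the Ext and Extl enzymes, and sulfate is added by the Ndst, Hs and Chst enzymes. On macrophages and lymphocytes the finished caps are read by lectins such as galectins, siglecs and selectins.

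Library totals, in units of 1e+06 counts, were 33.8 to 48.6 in GPR35-positive and 16.0 to 30.1 in GPR35-negative libraries. Gpr35 had 91.9, 56.2, 69.0 and 76.1 CPM (counts per 1e+06 counts, TMM-scaled, given in the order of replicates 1 to 4 here and below) in GPR35-positive libraries, against 3.21, 1.13, 2.84 and 4.69 CPM in GPR35-negative libraries. Its log2 fold change, GPR35-positive over GPR35-negative, was 4.6 ± 0.39 (SE, edgeR adjusted p = 1.07e-04). The GPR35-negative libraries stood apart from their macrophage label in their markers. All 20 macrophage identity markers were lower there, with a summed level of 48682 to 57777 CPM in GPR35-positive libraries and 5418 to 24077 CPM in GPR35-negative ones. Replicate 1 had the highest summed macrophage level among the GPR35-negative libraries. Of 17 tested B and plasma cell markers, 16 were lower in GPR35-positive libraries and Prdm1 was higher, and their summed level was 1411 to 2866 CPM in GPR35-positive and 74418 to 145264 CPM in GPR35-negative libraries. Jchain, the joining chain of secreted IgA, made up most of that sum, with a log2 fold change of −6.06 ± 0.44 (adjusted p = 5.42e-05). Stromal markers were lower for 11 of 15 (1029 to 2297 CPM in GPR35-positive against 5714 to 11989 CPM in GPR35-negative libraries), T cell and innate lymphoid markers for 9 of 14 (57.7 to 68.5 CPM in GPR35-positive against 347 to 614 CPM in GPR35-negative libraries) and epithelial markers for 3 of 13 (108 to 193 CPM in GPR35-positive against 241 to 753 CPM in GPR35-negative libraries). Cd28 (209 to 306 CPM) and Cd2 (82.8 to 182 CPM) made up most of the T cell and innate lymphoid sum in GPR35-negative libraries. Cd3e, Cd3d and Cd3g were at 1.13 to 13.7 CPM there. Granulocyte and mast cell markers summed to 112 to 166 CPM in GPR35-positive and 99.5 to 254 CPM in GPR35-negative libraries, with 1 higher and 2 lower of 7 tested. These 3, named after their values were seen, were Csf3r (2.39, adjusted p = 0.0130), Prg2 (−6.20, adjusted p = 9.43e-05) and Cpa3 (−3.80, adjusted p = 0.0312, and 0.106 with the animal as a block). The sums of this list came from different genes in the groups. Csf3r was at 103 to 159 CPM in GPR35-positive and 8.39 to 57.6 CPM in GPR35-negative libraries. Prg2 was at 0.836 to 2.12 CPM in GPR35-positive and 43.2 to 171 CPM in GPR35-negative libraries. With the animal as a block the T cell and innate lymphoid markers had 4 lower and 1 higher, Il7r (adjusted p = 0.0405), stromal markers 14 lower and epithelial markers 5 lower. Pax5 was at 0 in 4 of 8 libraries, and Mcpt1, Mcpt2, Fcer1a and Tff3 were at 0 in 2 to 6 of them, while Cd247, Cd8a, Slc26a3, Reg4, Siglecf, S100a9 and Cpa3 were at 0 in at least 1. The part of these other cell types in the results below was not tested.

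Because of this, each fold change was also computed with libraries scaled so that the mean log level of the 20 macrophage identity markers was equal in all 8. That scaling, called macrophage-identity scaling here, moved the median log2 fold change of all tested genes to −2.66, against −0.05 with TMM, so values under it are read against −2.66. It sets the macrophage markers equal and does not remove counts from other cell types. Coordinates are from RefSeq GRCm38.p6. "Higher" and "lower" below refer to TMM scaling and to an adjusted p below 0.05 over 14193 genes. Unless the animal block is named, they come from a fit that leaves out the pairing by animal.

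Of the 110 tested members, 25 were higher and 31 lower in GPR35-positive libraries, and 54 did not pass the threshold. The 56 called members compare with 38% of all tested genes called in either direction. As a share this was 22.7% higher, against 18.4% of all tested genes, and 28.2% lower, against 19.5% of all tested genes. The median log2 fold change of the members was 0.06. In 55 of the 56 called members all 4 animals gave the same direction, and the exception was Pofut2. Choosing members by their call favours such agreement, and it was not counted for all called genes. The CPM ranges of the groups did not overlap in 63 of 110 members (57.3%), against 42.1% of all tested genes. GPR35-positive libraries lay above in 31 of these, against 21.5% of all tested genes, and below in 32, against 20.6%. With library-size scaling 15 members were higher and 40 lower, against 1690 higher and 4193 lower of all tested genes. With macrophage-identity scaling none was higher (0.493% of all genes were) and 90 were lower (86.7% of all genes were, and 87.2% were called in either direction). Of the 25 higher members, 23 had negative values with macrophage-identity scaling and Mgat5 and Galnt9 positive ones, and all 25 lay above the median of all genes under it. The 31 lower members were also lower under it, from −9.02 to −2.90. Since this scaling moved nearly all genes down, these outcomes are no separate check of the calls with TMM. Of the 56 calls, 28 held in each of the 12 fits that left out both libraries of an animal or 1 single library. A fit with the animal as a block gave 26 higher (19.4% of all genes) and 32 lower (20% of all genes), losing 4 calls and adding 6. Exon bases are shared with another annotated gene by 44 of the 110, and with a gene of the table by 25; the kit did not mark strand, so reads of such overlaps cannot be told apart.

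**Figure D1:**
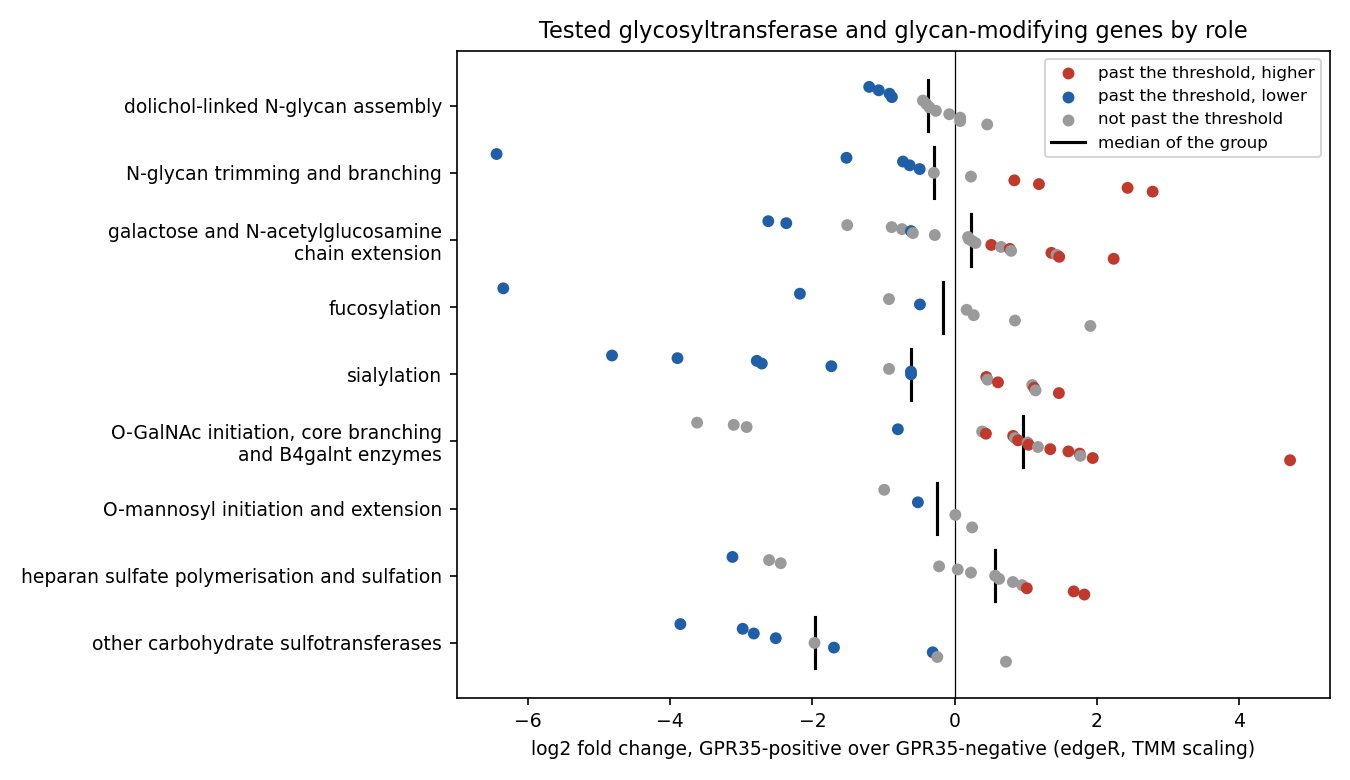
Log2 fold change of each of the 110 tested members (points, GPR35-positive over GPR35-negative, TMM scaling), in rows by role, with the median of each role as a bar. The row of O-GalNAc initiators, Gcnt and B4galnt enzymes holds 9 higher members and 1 lower of 18 tested. Other carbohydrate sulfotransferases hold 0 higher and 6 lower of 9, and sialyltransferases 4 higher and 7 lower of 15. Of all tested genes 18.4% were higher and 19.5% lower. With macrophage-identity scaling 23 of the 25 higher members turn negative, but all 25 lie above the median of all genes there, −2.66.

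The sequences just upstream of 4 called N-glycan genes, 2 in each direction, are printed as examples of what the motif counts below were read from. Each is the 300-base window from 250 bases before to 50 bases after a RefSeq start site (GRCm38.p6), with capitals marking CCACG or its reverse complement CGTGG, and CCAAT or its reverse complement ATTGG, letters of the endoplasmic reticulum stress response element. Alg5 and Fut8 were lower and Mgat5 and B3gnt8 higher in GPR35-positive libraries.
Alg5, chr3:54735289-54735588, plus strand: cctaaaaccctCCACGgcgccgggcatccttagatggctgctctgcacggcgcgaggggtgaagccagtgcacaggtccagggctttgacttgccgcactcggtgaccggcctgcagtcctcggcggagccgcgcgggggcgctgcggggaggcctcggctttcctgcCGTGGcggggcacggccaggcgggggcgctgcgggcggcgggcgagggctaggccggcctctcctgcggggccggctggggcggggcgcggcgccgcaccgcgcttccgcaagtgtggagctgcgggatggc
Fut8, chr12:77237854-77238153, plus strand: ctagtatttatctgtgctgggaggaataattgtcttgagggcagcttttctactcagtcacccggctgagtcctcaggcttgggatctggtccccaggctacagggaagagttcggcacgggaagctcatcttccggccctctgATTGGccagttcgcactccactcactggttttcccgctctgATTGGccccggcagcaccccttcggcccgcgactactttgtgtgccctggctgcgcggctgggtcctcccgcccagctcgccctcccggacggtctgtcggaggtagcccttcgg
Mgat5, chr1:127204736-127205035, plus strand: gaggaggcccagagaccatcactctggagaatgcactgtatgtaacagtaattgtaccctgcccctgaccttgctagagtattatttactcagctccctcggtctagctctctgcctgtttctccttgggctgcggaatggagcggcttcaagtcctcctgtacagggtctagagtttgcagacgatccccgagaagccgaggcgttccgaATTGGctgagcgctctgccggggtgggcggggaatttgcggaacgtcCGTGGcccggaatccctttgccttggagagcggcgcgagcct
B3gnt8, chr7:25627374-25627673, plus strand: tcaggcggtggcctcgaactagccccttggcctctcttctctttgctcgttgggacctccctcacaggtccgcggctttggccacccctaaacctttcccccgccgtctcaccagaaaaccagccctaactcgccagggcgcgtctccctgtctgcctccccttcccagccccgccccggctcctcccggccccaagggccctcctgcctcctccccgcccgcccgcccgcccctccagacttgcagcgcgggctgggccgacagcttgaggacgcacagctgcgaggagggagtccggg
At least 1 window was available for 92 of the 116 members, and a gene was counted as holding the letters when any of its windows did. Fut8 has 4 windows, of which the first in the genome is printed: it holds no CCACG, but another at chr12:77238489-77238788 does. CCACG, on either strand, was found for 11 of 18 higher members (61.1%), 12 of 23 lower members (52.2%) and 50.05% of the 11513 genes of the table with a window. CCAAT was found for 7 of 18 higher members (38.9%), 9 of 23 lower members (39.1%) and 42.4% of all these genes. The spaced form, CCAAT then 9 bases then CCACG, was found for no called member and for 0.174% of all these genes. Of the 46 tested members with a window that did not pass the threshold, 1 held it (2.17%). With so few members these shares are given without a test, and a match or its absence is only a description of the letters.

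Among the dolichol-linked assembly enzymes, 4 of 12 were lower (33.3%, against 19.5% of all tested genes), 0 were higher, and the median log2 fold change was −0.38. Alg3 (chr16:20605458-20610761), which adds the first mannose inside the endoplasmic reticulum, had 21.0, 19.0, 19.7 and 20.2 CPM in GPR35-positive libraries, against 31.8, 42.1, 41.7 and 51.9 CPM in GPR35-negative libraries. Its groups did not overlap, and its log2 fold change was −1.07 ± 0.16 (adjusted p = 0.0015). Alg5 (chr3:54735539-54749795), which makes the dolichol-linked glucose donor, had 58.5, 64.3, 56.7 and 56.5 CPM in GPR35-positive libraries, against 89.0, 103, 107 and 136 CPM in GPR35-negative libraries. The difference of −0.88 ± 0.14 (adjusted p = 0.00193) was again without overlap. Alg2 (−1.20, adjusted p = 0.00264) and Alg14 (−0.91, adjusted p = 0.00748), which build the cytosolic part of the tree, were also lower, and the call of Alg14 was lost without replicate 3 (adjusted p = 0.0650). Alg1, Alg6, Alg8, Alg9, Alg10b, Alg11, Alg12 and Alg13 did not pass, with log2 fold changes from −0.45 to 0.46. Alg3, Alg5, Alg2 and Alg14 had −3.75, −3.55, −3.86 and −3.63 with macrophage-identity scaling, below the median of all genes there.

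The trimming and branching enzymes split between directions: 4 of 11 were higher (36.4%, against 18.4% of all tested genes) and 5 lower (45.5%, against 19.5%). All 6 Mgat genes passed, against 38% of all tested genes. Mgat1 (chr11:49244191-49263027), which starts all hybrid and complex N-glycans, had 106, 103, 104 and 95.5 CPM in GPR35-positive libraries, against 278, 303, 278 and 314 CPM in GPR35-negative libraries. All 4 GPR35-positive libraries lay below, at −1.52 ± 0.11 on the log2 scale (adjusted p = 4.46e-05). Mgat3 (chr15:80173651-80215519), which adds the bisecting N-acetylglucosamine that blocks further branching, had 0.07, 0, 0.749 and 0.707 CPM in GPR35-positive libraries, against 30.0, 47.9, 37.8 and 20.9 CPM in GPR35-negative libraries. It was near absent from every GPR35-positive library, and its log2 fold change of −6.44 ± 0.90 (adjusted p = 0.00102) ranged from −5.80 without replicate 2 to −7.07 without replicate 4. Mgat2, the next enzyme after Mgat1, had −0.63 (adjusted p = 0.0034), and the Golgi mannosidases Man1a and Man1a2 had −0.73 (adjusted p = 0.0064) and −0.49 (adjusted p = 0.0178). The call of Man1a2 was lost without replicates 2, 3 or 4, and without GPR35-positive replicate 3 or 4 (adjusted p 0.0507 to 0.102).

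The enzymes that add further branches went the other way with TMM scaling. Mgat4a (chr1:37439340-37541060), which adds a further branch to the arm that Mgat1 begins, had 185, 111, 125 and 136 CPM in GPR35-positive libraries, against 45.0, 12.7, 24.7 and 20.8 CPM in GPR35-negative libraries. Its log2 fold change was 2.43 ± 0.37 (adjusted p = 0.00139) without overlap, and −0.00 with macrophage-identity scaling. Mgat5 (chr1:127204919-127488334), whose branch carries the poly-N-acetyllactosamine that galectins bind, had 20.6, 16.9, 16.9 and 19.0 CPM in GPR35-positive libraries, against 5.69, 1.07, 3.04 and 0.765 CPM in GPR35-negative libraries. Levels were uniform in GPR35-positive libraries and uneven in GPR35-negative ones, where replicate 1 was highest. The log2 fold change was 2.78 ± 0.59 (adjusted p = 0.0065), 3.43 without replicate 1, 3.49 without GPR35-negative replicate 1 and 0.48 with macrophage-identity scaling. Mgat5 shares 152 exon bases with Tmem163, which had −5.84. Mgat4b (chr11:50225335-50235103), which makes the same linkage as Mgat4a, had 63.9, 63.3, 52.8 and 65.0 CPM in GPR35-positive libraries, against 42.0, 24.6, 36.0 and 34.3 CPM in GPR35-negative libraries, a smaller difference of 0.84 ± 0.17 (adjusted p = 0.00569, −1.75 with macrophage-identity scaling). Man1c1 (1.19, adjusted p = 0.0496, and −1.04 with macrophage-identity scaling) was at the threshold: its call held without replicate 1 and without GPR35-negative replicate 1 and was lost in the other 10 leave-out fits (adjusted p 0.0772 to 0.160). Man2a1 (−0.29) and Man2a2 (0.23) did not pass.

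**Figure D2:**
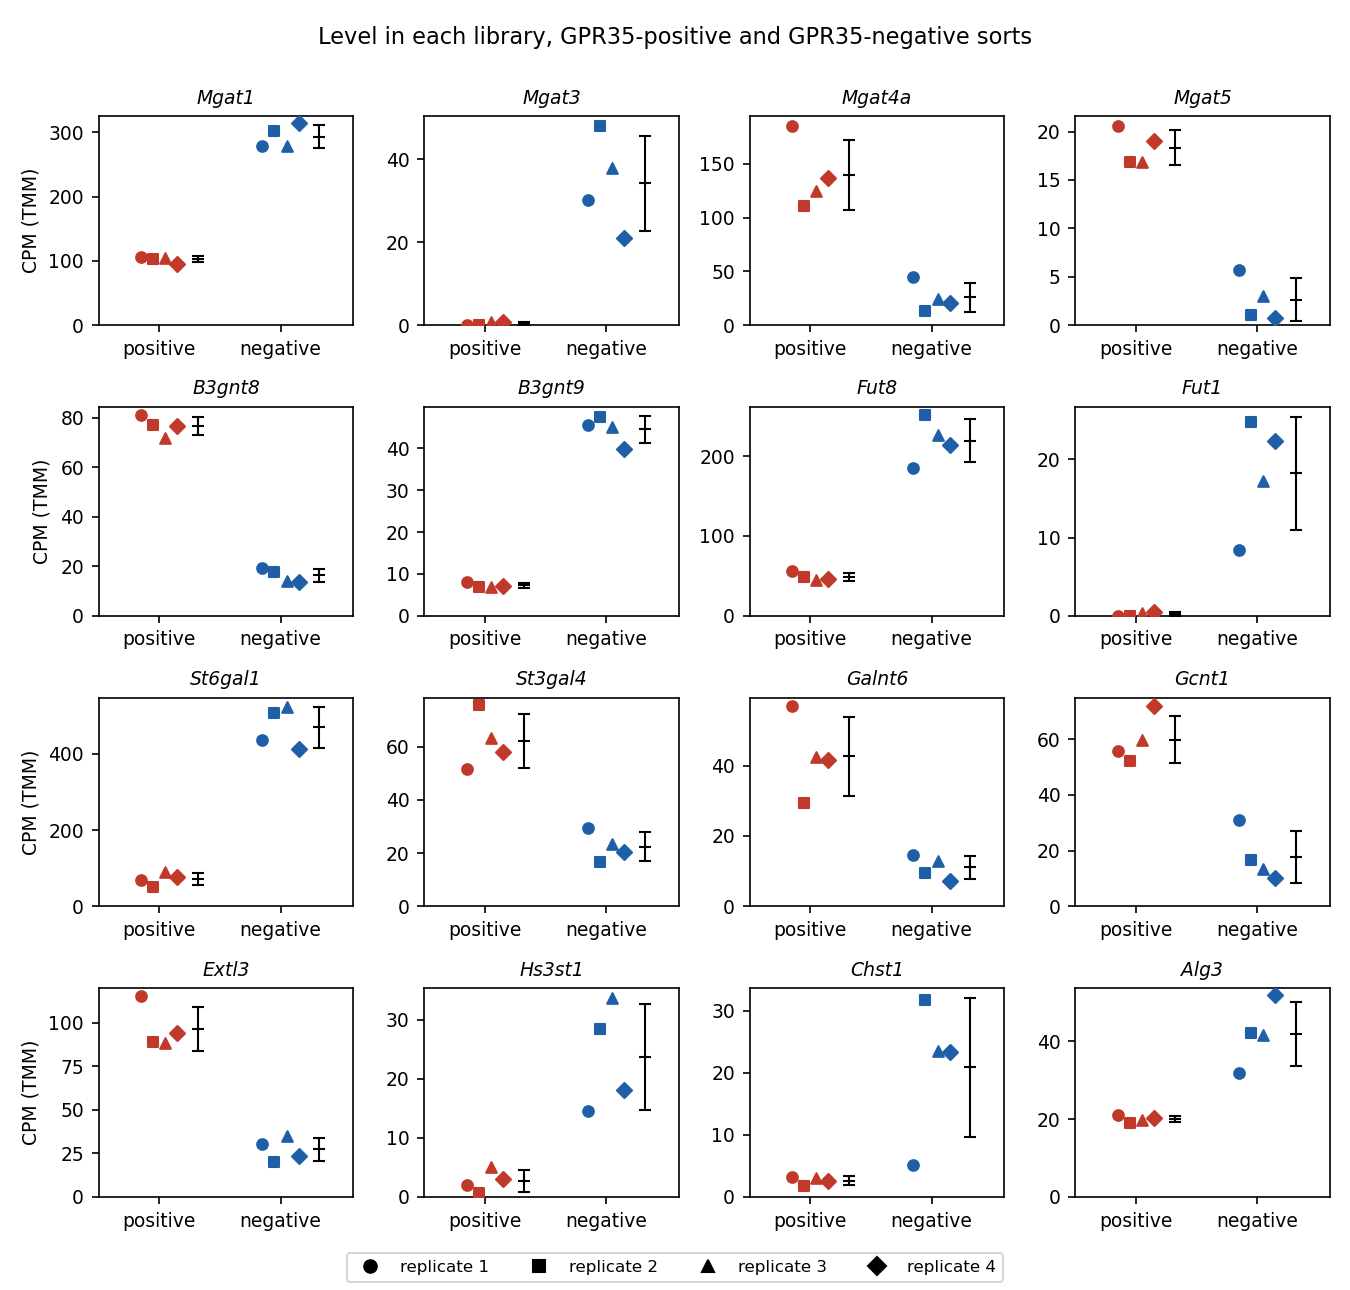
CPM (TMM-scaled) of 16 members in each library, GPR35-positive left and GPR35-negative right in each panel, with the marker shape giving the animal and bars the mean ± SD of 4 libraries. All 16 are called members, so the panels do not stand for the whole family. No panel has overlapping groups, while 57.3% of tested members and 42.1% of all tested genes had none. Mgat3 and Fut1 lie near 0 in every GPR35-positive library. GPR35-negative replicate 1 is the highest GPR35-negative library for Mgat4a, Mgat5, B3gnt8, St3gal4, Galnt6 and Gcnt1. With macrophage-identity scaling, where the median of all genes is −2.66, these turn negative apart from Mgat5.

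Of the 20 tested enzymes that extend chains with galactose and N-acetylglucosamine, 5 were higher (25%, against 18.4% of all tested genes), 3 lower (15%, against 19.5%) and 12 did not pass. The 40% called lay near the 38% of all tested genes. B3gnt8 (chr7:25627600-25629492), which extends poly-N-acetyllactosamine on branched N-glycans, had 81.0, 77.2, 72.0 and 76.6 CPM in GPR35-positive libraries, against 19.4, 17.7, 14.2 and 13.8 CPM in GPR35-negative libraries. Both groups were tight and far apart, at 2.24 ± 0.15 (adjusted p = 3.24e-05), and −0.28 with macrophage-identity scaling. B3gnt8 shares 1171 exon bases with Bckdha on the opposite strand, and Bckdha had a log2 fold change of 0.55 (adjusted p = 0.0222). B3gnt9 (chr8:105252638-105255250), of the same family, had 8.16, 6.76, 6.94 and 7.10 CPM in GPR35-positive libraries, against 45.6, 47.6, 45.1 and 39.8 CPM in GPR35-negative libraries. That is a difference of −2.62 ± 0.14 (adjusted p = 1.30e-05), so these related enzymes differed in opposite directions with TMM scaling (B3gnt9 −5.21 and B3gnt8 −0.28 with macrophage-identity scaling). B3gnt2, a main poly-N-acetyllactosamine synthase, had −0.61 (adjusted p = 0.0215), a call lost without replicates 2 or 3, GPR35-positive replicates 2 or 3, or GPR35-negative replicate 3 (adjusted p 0.0538 to 0.130). B3gnt7 (0.78, adjusted p = 0.0473, −1.94 with macrophage-identity scaling) lost its call with the animal block (adjusted p = 0.0529) and in 11 of 12 leave-out fits, the exception being without GPR35-negative replicate 4 (adjusted p 0.0554 to 0.181).

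Of the 7 B4galt galactosyltransferases 3 were higher with TMM scaling (42.9%, against 18.4% of all tested genes), each with a negative value under macrophage-identity scaling. Only 1 was lower (14.3%, against 19.5%). None of 4 B3galt genes passed, against 38% of all tested genes. B4galt1 (chr4:40804602-40853984), the main enzyme that places galactose on N-acetylglucosamine, had 111, 69.0, 89.0 and 96.7 CPM in GPR35-positive libraries, against 66.6, 11.8, 28.4 and 25.1 CPM in GPR35-negative libraries. GPR35-negative replicate 1 reached nearly the level of GPR35-positive replicate 2. The log2 fold change was 1.47 ± 0.45 (adjusted p = 0.031), 2.07 without GPR35-negative replicate 1, and −0.87 with macrophage-identity scaling. The call was lost with library-size scaling (adjusted p = 0.0630) and without replicate 3 or 4, GPR35-positive replicates 1, 3 or 4, or GPR35-negative replicates 3 or 4 (adjusted p 0.0559 to 0.142). B4galt5 (chr2:167298444-167349178), a lactosylceramide synthase, had 21.2, 25.5, 23.8 and 23.3 CPM in GPR35-positive libraries, against 12.9, 11.9, 7.03 and 4.79 CPM in GPR35-negative libraries. Its difference of 1.36 ± 0.31 (adjusted p = 0.00892, −1.03 with macrophage-identity scaling) fell short without replicate 3 (adjusted p = 0.0586). B4galt2 (chr4:117873000-117883519) went the other way, with 0.443, 0.669, 2.87 and 0.83 CPM in GPR35-positive libraries, against 4.31, 4.58, 9.71 and 6.28 CPM in GPR35-negative libraries. Replicate 3 was highest in each group, and the log2 fold change was −2.37 ± 0.66 (adjusted p = 0.021), −2.96 without replicate 3 and −3.25 without GPR35-positive replicate 3. It shares 1417 exon bases with Ccdc24 and 46 with Slc6a9 (−3.14). The call of B4galt2 was lost without replicates 1, 2 or 4, GPR35-positive replicates 1, 2 or 4, or GPR35-negative replicate 3 (adjusted p 0.0505 to 0.102). B4galt7, an enzyme of the linker between glycosaminoglycans and their proteins, had 0.52 (adjusted p = 0.0361, −2.07 with macrophage-identity scaling). Among leave-out fits its call held in only those without GPR35-negative replicate 1 or 3 (adjusted p 0.0556 to 0.0979 in the other 10). B4galt6, the second lactosylceramide synthase, had 1.43 (adjusted p = 0.0543, and 0.0237 with the animal block).

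Of the fucosyltransferases, 3 of 8 were lower (37.5%, against 19.5% of all tested genes) and 0 higher. The share called in either direction, also 37.5%, lay near the 38% of all tested genes. Fut8 (chr12:77237430-77475998), the enzyme of core fucose on N-glycans, had 55.9, 48.0, 44.5 and 45.9 CPM in GPR35-positive libraries, against 186, 251, 226 and 214 CPM in GPR35-negative libraries. The groups were far apart, at −2.17 ± 0.14 (adjusted p = 2.58e-05). Fut1 (chr7:45617606-45621059), which makes the H antigen, had 0, 0, 0.324 and 0.537 CPM in GPR35-positive libraries, against 8.44, 24.8, 17.3 and 22.3 CPM in GPR35-negative libraries. Its log2 fold change of −6.34 ± 1.08 (adjusted p = 0.00247) rests on very low levels in GPR35-positive libraries and was −5.73 without replicate 2, −7.18 without replicate 4 and −7.28 without GPR35-positive replicate 4. Pofut2, which fucosylates thrombospondin repeats, had −0.49 (adjusted p = 0.0378). Its call was lost with the animal block (adjusted p = 0.0671) and in 10 of 12 leave-out fits, holding without replicate 2 or GPR35-negative replicate 2 (adjusted p 0.0611 to 0.162).

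The fucosyltransferases that make selectin ligands and the one that acts on Notch did not pass. Fut4 (chr9:14748459-14752122) had 22.8, 19.7, 19.0 and 20.4 CPM in GPR35-positive libraries, against 16.6, 3.33, 13.4 and 12.04 CPM in GPR35-negative libraries, a difference of 0.85 ± 0.41 (adjusted p = 0.128). Fut7 (chr2:25422351-25426374) had 3.75, 4.99, 4.67 and 6.61 CPM in GPR35-positive libraries, against 3.15, 2.02, 0.16 and 0 CPM in GPR35-negative libraries. The groups of both genes did not overlap, but the spread was wide: Fut7 had 1.91 ± 1.17 (adjusted p = 0.223), 3.10 with the animal block, 2.94 without replicate 1 and 2.83 without GPR35-negative replicate 1. Pofut1 (chr2:153241532-153271029), which fucosylates the EGF repeats of Notch, had 23.3, 19.1, 26.1 and 19.0 CPM in GPR35-positive libraries, against 24.02, 19.4, 20.1 and 14.1 CPM in GPR35-negative libraries, with overlapping groups (0.17 ± 0.20, adjusted p = 0.538). Fut10 (−0.92) and Fut11 (0.27) did not pass either.

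The sialyltransferases had 4 higher (26.7%, against 18.4% of all tested genes) and 7 lower members of 15 (46.7%, against 19.5%). St6gal1 (chr16:23224729-23360350), which caps N-glycans with the sialic acid linkage recognised by CD22, had 69.7, 49.7, 89.3 and 78.0 CPM in GPR35-positive libraries, against 435, 507, 523 and 411 CPM in GPR35-negative libraries. Its groups lay far apart, and its log2 fold change was −2.71 ± 0.20 (adjusted p = 5.42e-05). St3gal4 (chr9:35046576-35116864), which caps the same kind of end through another linkage, had 51.5, 75.5, 63.2 and 58.1 CPM in GPR35-positive libraries, against 29.4, 16.5, 23.3 and 20.5 CPM in GPR35-negative libraries. Its difference was 1.47 ± 0.20 (adjusted p = 9.47e-04), opposite to St6gal1, and −1.08 with macrophage-identity scaling, where St6gal1 had −5.33. St3gal1 (chr15:67102875-67176946), which caps core 1 O-glycans, had 38.2, 39.3, 38.4 and 40.8 CPM in GPR35-positive libraries, against 27.5, 30.7, 29.3 and 27.6 CPM in GPR35-negative libraries. This was a small difference between tight groups, 0.45 ± 0.11 (adjusted p = 0.0137, −2.17 with macrophage-identity scaling), and its call was lost with library-size scaling (adjusted p = 0.294), with upper-quartile scaling (adjusted p = 0.0651), and without replicates 3 or 4 (adjusted p 0.0668 to 0.0846). St3gal3 (1.12, adjusted p = 0.0393) and St6galnac4 (0.61, adjusted p = 0.02) were also higher with TMM scaling, with −1.61 and −1.93 under macrophage-identity scaling. St3gal3 lost its call with library-size and upper-quartile scaling and without replicates 1, 3 or 4, GPR35-positive replicates 1, 3 or 4, or GPR35-negative replicate 1 (adjusted p 0.0660 to 0.118). St6galnac4 lost it with library-size scaling and without replicates 2, 3 or 4, or GPR35-positive replicates 1 or 4 (adjusted p 0.0504 to 0.0791).

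All 5 St6galnac genes, which add sialic acid to O-glycans and gangliosides, passed the threshold, 4 of them lower and St6galnac4 higher with TMM scaling. As shares this was 80% lower, against 19.5% of all tested genes, and 20% higher, against 18.4%. Of all tested genes 38% passed in either direction. St6galnac3 had −4.82 (adjusted p = 0.00158), St6galnac2 −2.78 (adjusted p = 0.0096), St6galnac5 −3.89 (adjusted p = 0.0317) and St6galnac6 −0.61 (adjusted p = 0.0468). St6galnac2 lost its call without replicate 4 (adjusted p = 0.0543). St6galnac5 lost it without replicates 1, 3 or 4, GPR35-positive replicates 1 or 4, or GPR35-negative replicates 1, 2 or 3 (adjusted p 0.0550 to 0.126). St6galnac6 lost it without a filter on low counts and in all leave-out fits but those without GPR35-negative replicate 1 or 2 (adjusted p 0.0522 to 0.196). St8sia6 (chr2:13651018-13794734), which adds a second sialic acid to an existing one, had 27.1, 40.7, 38.1 and 42.4 CPM in GPR35-positive libraries, against 94.9, 123, 135 and 140.5 CPM in GPR35-negative libraries (−1.73 ± 0.18, adjusted p = 2.70e-04). St8sia4 (chr1:95587682-95667717), a polysialic acid synthase, had 182, 152, 156 and 195 CPM in GPR35-positive libraries, against 149, 144, 103 and 102 CPM in GPR35-negative libraries. Per base of length its log2 ratio to St8sia6 averaged 1.38 in GPR35-positive and −0.84 in GPR35-negative libraries, and its difference of 0.46 ± 0.17 missed the threshold (adjusted p = 0.0595, −2.04 with macrophage-identity scaling). St3gal2 was lower (−0.61, adjusted p = 0.0209), and this was lost without replicates 2, 3 or 4, GPR35-positive replicates 2, 3 or 4, or GPR35-negative replicate 3 (adjusted p 0.0514 to 0.121). St3gal5, St3gal6 and St8sia1 did not pass.

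The O-GalNAc initiators, core-branching Gcnt enzymes and B4galnt enzymes together held the most higher members, 9 of 18 tested (50%, against 18.4% of all tested genes), and 1 lower (5.56%, against 19.5%), with a median log2 fold change of 0.96. The 9 were 7 Galnt genes, Gcnt1 and the ganglioside enzyme B4galnt1. With macrophage-identity scaling 8 of these 9 had negative values and Galnt9 a positive one. Galnt6 (chr15:100689915-100729376), an initiator of mucin-type O-glycans, had 56.9, 29.5, 42.4 and 41.7 CPM in GPR35-positive libraries, against 14.7, 9.57, 12.9 and 7.21 CPM in GPR35-negative libraries. All 4 animals were higher, by 1.94 ± 0.28 (adjusted p = 0.00111, −0.60 with macrophage-identity scaling). Gcnt1 (chr19:17326141-17372844), which makes the core 2 branch on which selectin ligands sit, had 55.9, 52.3, 59.6 and 71.8 CPM in GPR35-positive libraries, against 30.9, 16.6, 13.3 and 10.1 CPM in GPR35-negative libraries. Its log2 fold change was 1.76 ± 0.33 (adjusted p = 0.00363, −0.56 with macrophage-identity scaling), and GPR35-negative replicate 1 was the highest of its group. B4galnt1 (chr10:127165156-127172340), which makes the gangliosides GM2 and GD2, had 262, 325, 265 and 254 CPM in GPR35-positive libraries, against 129.5, 162, 145 and 160.3 CPM in GPR35-negative libraries. Replicate 2 was highest in each group, and the groups differed by 0.89 ± 0.13 (adjusted p = 0.00132, −1.74 with macrophage-identity scaling). B4galnt1 shares 715 exon bases with Slc26a10.

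Of the 13 Galnt initiators, 7 were higher (53.8%, against 18.4% of all tested genes) and Galnt2 lower (7.69%, against 19.5%). Galnt2 (chr8:124231394-124345722) had 66.1, 40.95, 78.8 and 58.5 CPM in GPR35-positive libraries, against 122, 113, 117 and 73.3 CPM in GPR35-negative libraries, with overlapping groups (−0.80 ± 0.23, adjusted p = 0.0238). Its call was lost without replicates 1 or 2, GPR35-positive replicates 1 or 4, or GPR35-negative replicates 2 or 3 (adjusted p 0.0504 to 0.113), and it shares 3854 exon bases with Gm20388 on its own strand. Galnt4 had 1.34 (adjusted p = 0.00459), Galnt1 0.82 (adjusted p = 0.00625), Galnt7 1.04 (adjusted p = 0.0168), Galnt3 1.6 (adjusted p = 0.0177), Galnt11 0.44 (adjusted p = 0.0445) and Galnt9 4.71 (adjusted p = 0.0123). Galnt9 averaged 4.37 ± 1.84 CPM in GPR35-positive and 0.155 ± 0.216 CPM in GPR35-negative libraries (SD, n = 4 each), so its fold change rests on a level close to 0. Calls were lost without replicate 4 for Galnt1 (adjusted p = 0.0519) and Galnt7 (adjusted p = 0.0725), and Galnt7 also lost it with library-size scaling. Galnt9 lost its call without replicate 3 (adjusted p = 0.0613), and Galnt3 without replicates 1, 2 or 3 (adjusted p 0.0520 to 0.0770). Galnt11 lost it with the animal block (adjusted p = 0.0536) and in all leave-out fits but those without GPR35-negative replicate 1 or 2 (adjusted p 0.0577 to 0.213). Galnt12 (chr4:47091894-47123058) had 22.8, 25.3, 19.0 and 25.8 CPM in GPR35-positive libraries, against 20.1, 11.4, 21.7 and 17.8 CPM in GPR35-negative libraries, with overlapping groups (0.39 ± 0.22, adjusted p = 0.197). With the animal block, Galnt10 (0.0383) and Gcnt2 (0.0226), and in the lower direction Galnt16 (0.0451) and Galnt18 (0.0137), had adjusted p-values below the threshold. Galnt15, Gcnt7 and B4galnt2 did not pass, and B4galnt4 and Gcnt3 were too low to be tested.

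O-mannosyl glycans, found on alpha-dystroglycan, are initiated by Pomt1 and Pomt2 and extended with N-acetylglucosamine by Pomgnt1 and Pomgnt2. Of these 4 genes only Pomgnt1 passed, as lower (25%, against 19.5% of all tested genes), and neither initiator did. Pomgnt1 (chr4:116150498-116159844) had 33.7, 33.9, 35.7 and 37.8 CPM in GPR35-positive libraries, against 51.1, 40.4, 53.8 and 56.4 CPM in GPR35-negative libraries. Its difference of −0.52 ± 0.14 (adjusted p = 0.0163) was lost without replicates 1, 3 or 4 (adjusted p 0.0640 to 0.101), and it shares 641 exon bases with Lurap1 (−3.64). Pomt2 (−0.99) reached an adjusted p of 0.0304 with the animal block and 0.0511 without it. Pomt1 had 0.25 and Pomgnt2 0.01.

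For heparan sulfate, 3 of 13 tested enzymes were higher (23.1%, against 18.4% of all tested genes) and 1 lower (7.69%, against 19.5%). The 30.8% called lay below the 38% of all tested genes. Extl3 (chr14:65052059-65149899), which starts the chain, had 115, 88.6, 88.3 and 93.9 CPM in GPR35-positive libraries, against 30.6, 20.2, 34.7 and 23.3 CPM in GPR35-negative libraries. Groups were well separated, at 1.82 ± 0.19 (adjusted p = 2.70e-04, −0.82 with macrophage-identity scaling). The polymerases did not pass. Ext1 (chr15:53068261-53346183) had 35.0, 46.6, 51.4 and 43.8 CPM in GPR35-positive libraries, against 45.9, 24.7, 32.3 and 16.2 CPM in GPR35-negative libraries (0.57 ± 0.29, adjusted p = 0.154). Its partner Ext2 (chr2:93695631-93822568) had 94.6, 108, 97.5 and 102 CPM in GPR35-positive libraries, against 93.2, 83.3, 94.0 and 72.3 CPM in GPR35-negative libraries. That was 0.23 ± 0.12 (adjusted p = 0.158), with groups that did not overlap and a sign that turned to −0.06 with library-size scaling. Ndst1 (chr18:60684494-60749035), which removes acetyl groups and sulfates the chain, had 89.9, 65.4, 60.3 and 73.0 CPM in GPR35-positive libraries, against 26.2, 12.8, 35.2 and 16.1 CPM in GPR35-negative libraries. All animals were higher, by 1.67 ± 0.31 (adjusted p = 0.00362, −1.01 with macrophage-identity scaling), and Ndst2 had 1.01 (adjusted p = 0.0283, −1.34 with macrophage-identity scaling). Ndst2 lost its call with library-size scaling and without replicates 2, 3 or 4, GPR35-positive replicates 1, 3 or 4, or GPR35-negative replicates 2 or 3 (adjusted p 0.0507 to 0.115). Hs3st1 (chr5:39613935-39645592), which makes the antithrombin-binding site, was the lower one, with 2.01, 0.669, 5.09 and 3.05 CPM in GPR35-positive libraries, against 14.5, 28.4, 33.7 and 18.1 CPM in GPR35-negative libraries (−3.12 ± 0.58, adjusted p = 0.00349). Extl1, Extl2, Ndst3, Hs2st1, Hs6st1, Hs3st3a1 and Hs3st3b1 did not pass, and Hs3st2 was too low to be tested.

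The other carbohydrate sulfotransferases were lower for 6 of 9 tested (66.7%, against 19.5% of all tested genes) and higher for 0, with a median log2 fold change of −1.97. Chst1 (chr2:92599632-92615252), which sulfates keratan sulfate, had 3.29, 1.71, 3.02 and 2.56 CPM in GPR35-positive libraries, against 5.17, 31.7, 23.5 and 23.3 CPM in GPR35-negative libraries. GPR35-negative replicate 1 lay close to the GPR35-positive libraries, and the log2 fold change was −2.98 ± 0.52 (adjusted p = 0.00278). Chst11 (chr10:82984440-83195904), a chondroitin sulfotransferase, had 0.63, 0.937, 1.42 and 1.15 CPM in GPR35-positive libraries, against 2.96, 9.27, 4.84 and 6.65 CPM in GPR35-negative libraries (−2.51 ± 0.50, adjusted p = 0.00463). Chst15 (−1.70, adjusted p = 0.00636), Chst10 (−2.82, adjusted p = 0.01), Chst3 (−3.85, adjusted p = 0.0166) and Chst12 (−0.31, adjusted p = 0.0411) completed the lower members. Chst10 lost its call without replicate 4 (adjusted p = 0.0555) and Chst3 without replicates 2 or 4 or GPR35-positive replicate 4 (adjusted p 0.0533 to 0.0878). Chst12 lost its call with the animal block (adjusted p = 0.0716) and in all leave-out fits but the one without GPR35-negative replicate 4 (adjusted p 0.0561 to 0.215). Chst2, Chst7 and Chst14 did not pass, and Chst4, Chst5 and Chst8 were too low to be tested.

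**Figure D3:**
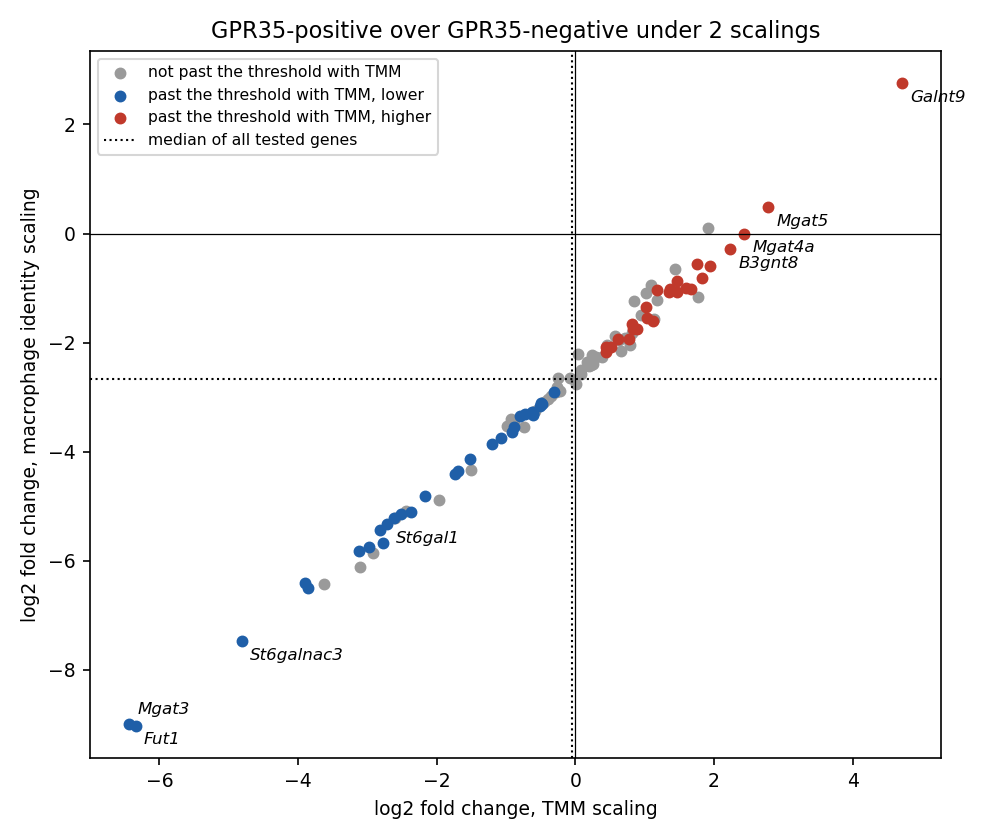
Log2 fold change of each tested member with TMM scaling (x axis) and with macrophage-identity scaling (y axis), with dotted lines at the median of all tested genes (−0.05 and −2.66). Most points lie near a line shifted down from equality, and Galnt9 and Mgat5 are the only members called higher with TMM that stay above 0 on the y axis.

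Per length, B4galnt1 (84.0 ± 9.87 CPM per kilobase), Mgat2 (62.8 ± 4.13) and Galnt1 (47.5 ± 4.74) had the highest levels in GPR35-positive libraries (SD, n = 4). In GPR35-negative libraries these were Mgat2 (97.3 ± 8.62 CPM per kilobase), St6gal1 (97.0 ± 11.2) and Mgat1 (88.5 ± 5.46). Mgat2 was in the top 3 of both groups.

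Ratios of 2 members within a library do not depend on scaling, and pairs were chosen after their values were seen, so they are given as a description with no test. The log2 ratio of Mgat5 to Mgat1, per base of length, was −2.53 to −2.23 in GPR35-positive libraries and −8.59 to −5.52 in GPR35-negative libraries. For Mgat4a to Mgat1 it was −1.02 to −0.33 in GPR35-positive and −5.71 to −3.76 in GPR35-negative libraries. St3gal4 to St6gal1 was 0.75 to 1.86 in GPR35-positive and −3.69 to −2.63 in GPR35-negative libraries, and B3gnt8 to B3gnt9 was 3.74 to 3.94 in GPR35-positive and −1.23 to −0.80 in GPR35-negative libraries. In each of these pairs every GPR35-positive library lay above every GPR35-negative one. Extl3 to Ext2 averaged −1.12 in GPR35-positive and −2.74 in GPR35-negative libraries, and Galnt1 to Galnt2 averaged 1.71 in GPR35-positive and 0.06 in GPR35-negative libraries.

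**Figure D4:**
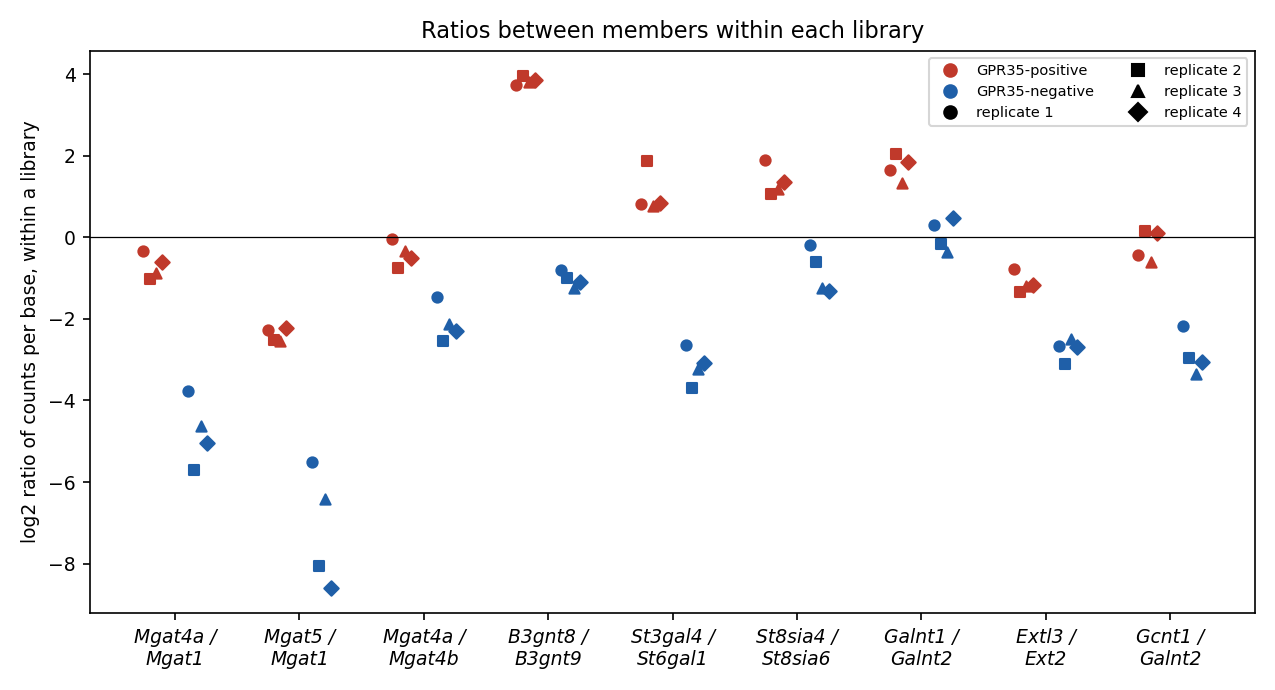
Log2 ratio between 2 members in each library (counts per base of gene length), GPR35-positive left and GPR35-negative right of each pair, with the marker shape giving the animal. The groups do not overlap in any of the 9 pairs, which were chosen after their values were seen.

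The genes around the members were counted from lists with no test of a list, and are to be read against the 18.4% higher and 19.5% lower of all tested genes. Of 12 oligosaccharyltransferase subunits, which move the sugar tree onto proteins, 11 were lower and 0 higher (median −1.22), led by Krtcap2 (−2.52, adjusted p = 7.68e-05) and Stt3b (−1.84, adjusted p = 1.07e-04). Of 11 glucosidase, mannosidase and folding genes of the endoplasmic reticulum, 6 were lower and 0 higher, among them Edem2 (−3.46, adjusted p = 1.04e-05) and Edem1 (−2.82, adjusted p = 2.50e-05), which route misfolded glycoproteins to degradation. Donor synthesis had 13 lower and 1 higher of 24, with Gmppb, of GDP-mannose synthesis, at −1.98 (adjusted p = 1.49e-04) and Gne, of sialic acid synthesis, at −1.78 (adjusted p = 1.59e-04). Of 11 donor transporters 3 were lower, including Slc35b1 (−1.97, adjusted p = 1.03e-04). The glycan-removing enzymes, mostly lysosomal, had 12 higher and 3 lower of 18 (median 1.0), and with macrophage-identity scaling 0 higher and 14 lower (median −1.5). Engase (1.74, adjusted p = 7.31e-04) was higher with TMM scaling, with −0.69 under macrophage-identity scaling, and Glb1 (−0.83, adjusted p = 0.00119) and Aga (−0.64, adjusted p = 0.00448) were lower. Among other glycosaminoglycan enzymes, 4 of 19 were higher and 6 lower. Sulf2, which removes sulfate from heparan sulfate, had 1.91 (adjusted p = 0.00253, −0.37 with macrophage-identity scaling), and Chpf, of chondroitin polymerisation, had −2.92 (adjusted p = 3.11e-05). C1galt1, which makes core 1 O-glycans, had −1.55 (adjusted p = 0.00599), and Lfng, which elongates O-fucose on Notch, had 1.67 (adjusted p = 0.0178, −0.58 with macrophage-identity scaling), a call lost without replicates 2 or 3. The dolichol supply genes had 2 higher and 3 lower of 11, and none of 8 other O-mannosyl enzymes passed.

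GPR35-negative replicate 1, the GPR35-negative library with the highest macrophage marker level, was the highest of its group for 17 of the 25 higher members (68.0%), against 65.9% of all 2613 higher genes. Among the 31 lower members it was highest for 2 (6.45%), against 3.79% of all lower genes. The members did not stand apart from the other called genes in this order.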

How the data were processed

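RNA-seq counts per gene were deposited by the authors as whole numbers for 8 libraries, with a gene length column. The submitters' processing notes name the STAR 2.5.2a aligner, R 3.4.2 and the mm10 build; the counting tool is not given in the sources used here. Per the labels' protocols, SMART-Seq v4 amplified the cDNA and Nextera XT made the libraries; they do not mark strand or molecules, so counts include PCR copies. The 9 rows without a symbol are part of the 14980 listed genes.

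Counts were tested with edgeR 4.0.16 (R 4.3.3): filterByExpr (minimum count 10, minimum total 15) left 14193 genes, with TMM scaling, a robust quasi-likelihood F-test, Benjamini-Hochberg adjustment over all genes tested and a 0.05 cutoff. Fold changes on the log2 scale set GPR35-positive over GPR35-negative. The SE beside them was derived from the test, as the absolute log2 fold change divided by the square root of F. For genes near 0 in a group, such as Mgat3 and Fut1, it is only a rough guide. Coordinates and promoter windows came from RefSeq GRCm38.p6 by Entrez ID. Exon overlaps came from the reference annotation of the mouse build. CPM values use TMM effective library sizes.

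Both libraries of a replicate number come from 1 animal, per the labels, so replicates are paired by animal. Correlations of their deviations from the group means were 0.205, 0.206, 0.432 and 0.0637. Between GPR35-positive and GPR35-negative libraries of different animals they were −0.286 to 0.237, which overlaps the values within animals. Replicates are separate animals, and no 2 libraries agreed within sampling noise (smallest chi-square per degree of freedom 26.6). The main fit did not include the animal, so its fold changes, SE and p-values leave this pairing out. The animal block was an alternative, beside RLE, library-size, upper-quartile and macrophage-identity scaling, other filters, DESeq2 1.42.0, limma 3.58.1 and each left-out library or animal. On simulated counts with 200 of 14193 genes changed by a log2 fold of 2, the procedure recovered 82.5% of them, and 3.51% of its calls were false. The simulation had far fewer changed genes than these data and no animal effect. It therefore cannot check the scaling or the error rate here.

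Members named with every library's value were up to 2 per role and direction with the smallest p, plus a list of fixed members; list genes were named by the same rule. Members and lists were chosen with earlier results of these data known.

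Some items are not reported here.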

Additional observations from a re-analysis of the deposited data

Results flagged for a closer look

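In 3 of 72 sets of 4 libraries, 1 library lay far from the other 3, where chance flags about 1 in 20 sets. Mgat4b had 52.8 CPM in GPR35-positive replicate 3, against 63.3 to 65.0 CPM in the other GPR35-positive libraries. B4galt2 had 2.87 CPM in GPR35-positive replicate 3, against 0.443 to 0.83 CPM in the others, and B4galnt1 had 325 CPM in GPR35-positive replicate 2, against 254 to 265 CPM in the others.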

How the results depend on the processing

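The threshold was passed by 5387 genes; 5580 passed with the replicate block, which pairs libraries by animal, and gave 26 higher and 32 lower members. The block lost the calls of B3gnt7, Chst12, Galnt11 and Pofut2, added 6 and changed no other member's call. Macrophage-identity scaling gave 12373 genes (70 higher and 12303 lower), with 0 members higher and 90 lower. With the block it gave 11757 genes (94 higher and 11663 lower), with 0 members higher and 86 lower. Library-size scaling gave 15 members higher, against 1690 of all genes. Leaving out animals or libraries gave 3281 (without replicate 3) to 5971 genes. These fits had 15 to 28 members higher and 22 to 29 lower, against 1569 to 2931 higher and 1681 to 3040 lower of all genes. Of called genes, 48.5% were higher with TMM, 28.7% with library-size scaling, 39.2% with upper-quartile scaling and 0.566% with macrophage-identity scaling. Signs turned with macrophage-identity scaling, without and with the block, for Mgat4b (−1.75, −1.55), B3gnt8 (−0.28, −0.17), B4galt5 (−1.03, −0.95), B4galt1 (−0.87, −0.70), Fut4 (−1.74, −1.36), Pofut1 (−2.36, −2.24), St3gal4 (−1.08, −0.93), St3gal1 (−2.17, −1.98), St8sia4 (−2.04, −1.94), Galnt6 (−0.60, −0.47), B4galnt1 (−1.74, −1.54), Gcnt1 (−0.56, −0.54), Galnt12 (−2.26, −1.99), Extl3 (−0.82, −0.57), Ndst1 (−1.01, −0.62), Ext1 (−1.88, −1.75) and Ext2 (−2.36, −2.18), and without the block for Mgat4a (−0.0037). Library-size scaling also turned Pofut1 (−0.11) and Ext2 (−0.060). The scaling itself sets these signs, since it moves all genes. Gpr35 kept its direction and call under each alternative. Members with few counts in GPR35-positive libraries, such as Mgat3 and Fut1, have fold changes limited by depth.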
